A study of Homo sapiens with 40 samples.

Results

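EBC1 is an established human lung cancer line that the row labels of the study's table place among lung squamous cell carcinomas. The comparison described here is EBC1 treated with GSK3368712 against EBC1 treated with the vehicle dimethyl sulfoxide (DMSO), with 2 RNA-seq libraries in each arm, so 4 of the 40 libraries of a study of 10 non-small cell lung cancer lines. GSK3368712 inhibits type I arginine methyltransferases. All 4 library titles carry the tag D5, which the labels do not spell out, so the dose and the length of treatment are unclear from the labels. Its members are all genes with values for EBC1 in the authors' deposited table, which is 13968 of the 58336 genes listed for the line and of 19280 genes with values in any of the 10 lines. The table gives 1 comparison per line and no values per library, so a gene's value in each library was not analysed here and overlap between the arms could not be judged. Nothing in the labels tells if replicate libraries were grown as separate cultures, and the p-values measure only the spread between these libraries.

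Type I arginine methyltransferases, of which PRMT1 is the main enzyme in most cells, place asymmetric dimethyl marks on arginines of histones, RNA-binding proteins, splicing factors and signalling proteins, among them inhibitory SMAD proteins of the bone morphogenetic protein (BMP) pathway. BMP ligands bind paired serine/threonine kinase receptors, the receptors phosphorylate SMAD1 and SMAD5, and these enter the nucleus with SMAD4 and switch on the ID genes. ID proteins have a helix-loop-helix but no DNA-binding region, and they hold basic helix-loop-helix factors away from DNA. EBC1 is also known for an amplified MET gene, which encodes the receptor of hepatocyte growth factor and signals through the ERK kinases.

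A gene is said to have risen or fallen where the authors' DESeq2 adjusted p was at most 0.05. By that threshold 46.5% of the EBC1 genes changed, 23.0% (3218 genes) rising and 23.4% (3271 genes) falling, and the median log2 fold change over all 13968 genes was 0.002. Every count of members given here for a gene list is to be read against these shares. Large changes leaned upwards. Of the genes that changed by at least 1 on the log2 scale, 875 rose and 364 fell, and of those that changed by at least 3, 88 rose and 3 fell. Among the 6984 genes above the median mean count of 1679.6, 1436 rose and 2239 fell. The summed mean normalized count was 64316692, within the range of 57647556 to 108557964 over the 10 lines, and the median standard error of a fold change was 0.121 on the log2 scale, against 0.108 to 0.342 over the lines.

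**Figure D1:**
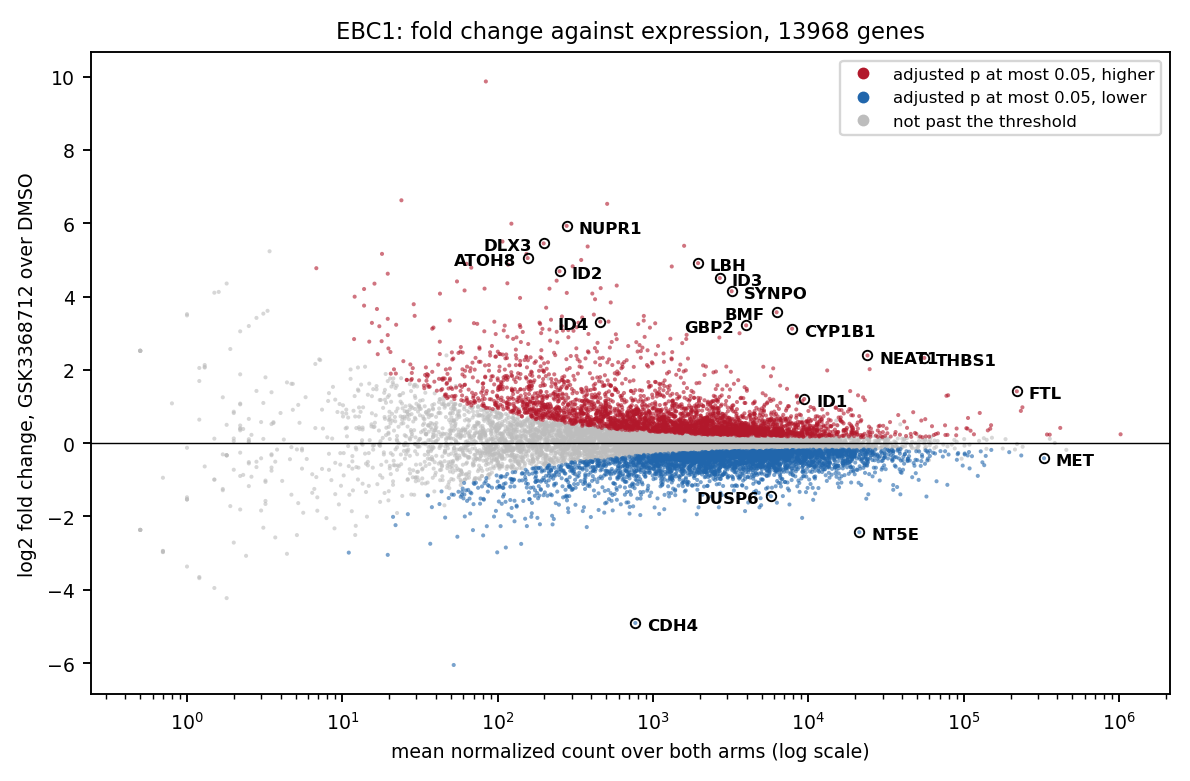
Log2 fold change (GSK3368712 over DMSO) against the mean normalized count over both arms (log scale) for the 13968 EBC1 genes, with genes past the authors' adjusted p of 0.05 in red (3218 higher) and blue (3271 lower). Each point is 1 gene. LBH, ID3 and SYNPO lie above 4 at mean counts of 1948 to 3206, and MET lies near the right edge at −0.41.

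The squamous label was checked against marker genes. Of 20 squamous markers, 7 had values in EBC1, and TP63, KRT5 and KRT6A were not among them. KRT14 and DSG3 had values in no line. SOX2, the squamous lineage factor, stood at 2.2 CPM (mean normalized counts scaled to a sum of 1000000 over the line's genes), below the 13.5 to 316 CPM of the 4 other lines that list it. SERPINB5 stood at 245 CPM and PERP at 125 CPM. Of 15 glandular lung markers, 6 had values, led by the simple-epithelium keratin KRT7 at 2330 CPM. NKX2-1 and the surfactant gene SFTPB had none in EBC1, and SFTPC had none in any line. No neuroendocrine marker of 7 and 1 blood cell marker of 7 (CD68, 57.2 CPM) had values. The other 5 lines labelled squamous listed 5 to 7 of the 20 squamous markers. The adenocarcinoma lines listed 12 (PC9), 8 (NCIH1975), 6 (NCIH1563) and 3 (NCIH522), so this count does not separate the subtypes. EBC1 is called by its name below. Of the squamous markers, the authors' deposited table gave KRT16, a keratin of stressed epithelium, a log2 fold change of 1.80 with the compound and SERPINB5 one of −0.21, and the other 5 did not pass the threshold. Of the 6 glandular markers 5 rose, among them FOXA1 (0.42), KRT7 (0.49), MUC1 (1.45) and NAPSA (1.87), and FOXA2 fell (−1.41). Only KRT7 of these markers lay above the EBC1 median mean count of 1679.6. The larger folds of NAPSA (mean count 161.6), MUC1 (161.0) and KRT16 (133.2) rest on far fewer reads.

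MET and its chromosomal neighbours were checked as another mark of the line. MET (GRCh38, chr7:116672390-116798386, plus strand) stood at 5110 CPM over both arms, against 25.8 to 730 CPM in the 8 other lines with values. Its neighbours were high too. CAV1, which encodes the coat protein of caveolae, stood at 5340 CPM against at most 519, CAV2 at 1010 against at most 97.0, TES at 867 against at most 164, CAPZA2 at 709 against at most 142 and ST7 at 173 against at most 45.6. The 6 genes with values summed to 13200 CPM in EBC1 and to 51.3 to 1410 CPM in the other lines. With GSK3368712, MET fell by 0.41 on the log2 scale in the authors' deposited table, from 375420 to 281963 mean normalized counts per arm. Arm levels of this kind were computed here from the deposited mean count and fold change, taking the arms as equal in libraries. CAV1 (0.23) and CAPZA2 (0.25) rose, and CAV2, TES and ST7 lay between −0.14 and 0.07 without passing the threshold, so MET was the only gene of the 6 to fall.

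**Figure D2:**
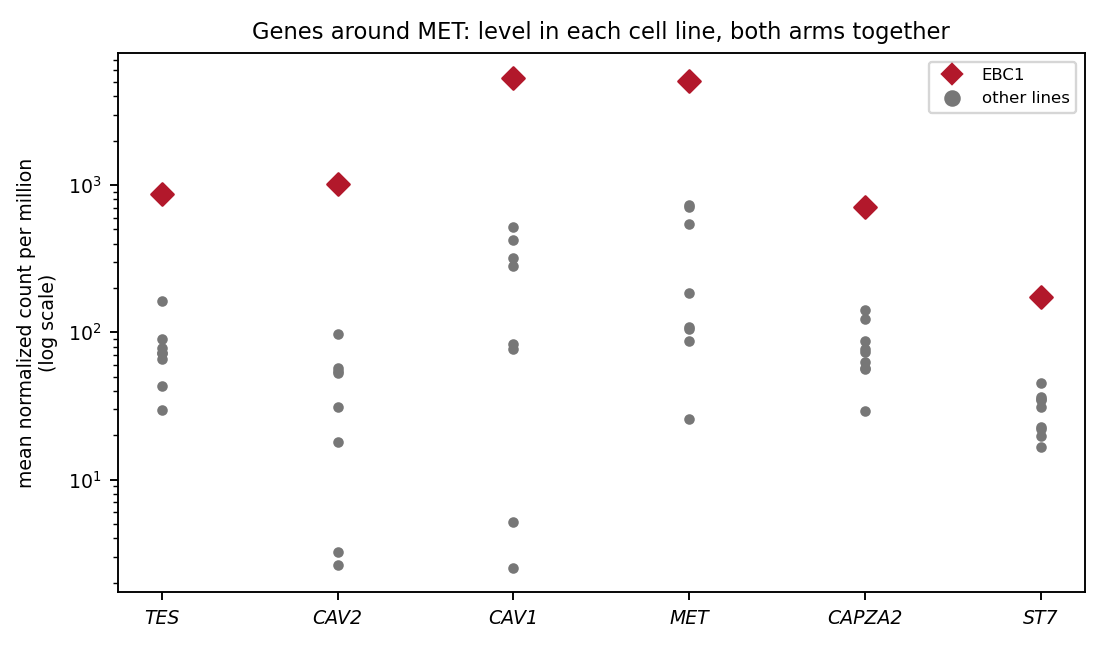
Mean normalized count in CPM (log scale) of the 6 genes around MET with values in EBC1, in chromosome order, for EBC1 (red diamonds) and each other line with a value (grey points), both arms together. EBC1 is above every other line for all 6 genes, with MET at 5110 CPM.

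The enzymes that the compound inhibits changed little at the RNA level. In the authors' deposited table PRMT1 had a log2 fold change of −0.07 ± 0.08 (± here and below is the authors' standard error; adjusted p = 0.519), CARM1 one of −0.10 ± 0.10 and PRMT2 one of 0.20 ± 0.09, and none of these passed. PRMT3, which modifies a ribosomal protein, fell by 0.42 ± 0.14. PRMT6 had no value in EBC1. Among 9 other arginine methyltransferases and methionine cycle genes, MAT2A (−0.46) and MAT2B (0.36), the catalytic and regulatory subunits of the enzyme that makes the methyl donor, moved in opposite directions, MTAP (−0.42), WDR77 (−0.39) and AHCY (−0.22) fell, and the other 4 did not pass.

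Of the 53 gene lists, the ID genes and other targets of BMP-SMAD signalling had the highest median. Of 11 members with values in EBC1 9 rose and none fell, with a median log2 fold change of 1.43. ID3, whose protein blocks basic helix-loop-helix factors, rose by 4.50 ± 0.12, which took its level from 227 to 5151 normalized counts (22.7-fold). ID2 rose by 4.69 ± 0.32, from 18.7 to 481. ID4 rose by 3.31 ± 0.22, from 83.6 to 831, and ID1 rose by 1.20 ± 0.08, from 5688 to 13103. ID1 had the most counts of the 4 in both arms, not corrected for length, and the smallest rise. DLX3, a homeobox factor of epidermal and placental differentiation, rose by 5.45 ± 0.43 from 8.84 normalized counts, and ATOH8, a basic helix-loop-helix factor and SMAD target, by 5.05 ± 0.45 from 9.14. Both started from so few counts that the folds depend on small numbers of reads. The authors removed genes of low expression, and 11 of the list's 16 genes had values. Members as low with DMSO as DLX3, ATOH8 or ID2 may therefore be listed only for their level with GSK3368712. Such members could enter these counts only as rises. The inhibitory SMAD genes SMAD6 (1.14) and SMAD7 (1.43) and the transcription factor GATA2 (0.78) also rose in the authors' deposited table, and MSX1 (0.26) and MSX2 (0.54) did not pass. ID2 overlaps an antisense gene, ID2-AS1. The libraries were made with a stranded kit, but whether counting used strand is not stated.

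The 250 bases before the RefSeq start sites of the 4 ID genes are printed to show the regions that drive them (GRCh38.p14, 5′ to 3′ on the gene's strand: ID1 on chr20:31605039-31605288, plus; ID2 on chr2:8681806-8682055, plus; ID3 on chr1:23559502-23559751, minus; ID4 on chr6:19837120-19837369, plus). Capitals mark CAGAC, a core recognised by SMAD4, searched on both strands.
ID1: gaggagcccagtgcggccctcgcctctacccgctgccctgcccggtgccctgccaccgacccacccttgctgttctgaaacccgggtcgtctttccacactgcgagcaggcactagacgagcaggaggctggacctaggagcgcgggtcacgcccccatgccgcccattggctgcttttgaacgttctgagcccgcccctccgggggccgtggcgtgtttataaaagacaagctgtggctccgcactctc
ID2: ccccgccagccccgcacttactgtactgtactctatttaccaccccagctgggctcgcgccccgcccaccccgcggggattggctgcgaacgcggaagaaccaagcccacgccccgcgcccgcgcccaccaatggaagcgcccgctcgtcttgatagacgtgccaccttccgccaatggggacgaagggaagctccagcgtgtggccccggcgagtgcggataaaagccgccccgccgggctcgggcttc
ID3: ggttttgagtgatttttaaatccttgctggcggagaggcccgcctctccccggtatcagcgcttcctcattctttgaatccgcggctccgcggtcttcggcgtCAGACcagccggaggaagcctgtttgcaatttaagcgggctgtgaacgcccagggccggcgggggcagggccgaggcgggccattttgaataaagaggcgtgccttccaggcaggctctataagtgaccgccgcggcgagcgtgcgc
ID4: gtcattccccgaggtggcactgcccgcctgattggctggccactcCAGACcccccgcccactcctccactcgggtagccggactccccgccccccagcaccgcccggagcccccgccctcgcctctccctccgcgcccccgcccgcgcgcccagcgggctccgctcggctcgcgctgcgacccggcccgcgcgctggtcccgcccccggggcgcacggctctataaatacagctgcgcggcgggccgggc

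The ID3 stretch held CAGAC once, beginning 147 bases before the start, the ID4 stretch held it once, beginning 205 bases before the start, and the ID1 and ID2 stretches did not hold it. The same letters occurred in 5 of 13 promoter entries (38.5%) of 10 genes of the ID and BMP-SMAD list and in 38.0% of all 35116 promoter entries of this length. GGCGCC, a letter run bound by SMAD1 and SMAD5, occurred in 1 of the 13 entries (7.69%) and in 16.4% of all entries. SMAD elements that drive ID genes are known to lie further upstream as well, outside these windows.

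Upstream of the ID genes the pathway moved in mixed directions. Of 17 BMP ligands, receptors and extracellular inhibitors with values, 7 rose, 3 fell and the median was 0.20. NOG, which encodes the BMP trap noggin, fell by 1.75 ± 0.16 (from 1578 to 468 normalized counts), and FST, which encodes the activin and BMP trap follistatin, fell by 1.33 ± 0.15. The follistatin relatives FSTL3 (1.36) and FSTL1 (1.50) rose. BAMBI, a receptor decoy that is itself a BMP target, rose by 2.90 ± 0.44. Among ligands, BMP6 rose by 1.17 ± 0.21, BMP4 fell by 0.42 and BMP2 stood at 0.06 without passing. The receptor genes BMPR1B (0.34), BMPR2 (0.37) and ACVR2B (0.84) rose. Of 5 genes for BMP SMADs and their ubiquitin ligases, only SMURF2 changed (−0.43), with SMAD1 at −0.08, SMAD5 at 0.11 and SMAD4 at −0.11. Phosphorylation of the SMAD proteins, which carries the signal, is not measured by RNA. Of 7 partners of ID proteins and helix-loop-helix repressors, HEY1 (−0.89), HES4 (−0.82) and TCF3 (−0.22) fell, none rose, and MYC stood at −0.09.

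Of 16 genes responsive to the related ligand TGF-beta, 8 rose and 3 fell (median 0.35). IGFBP3, which binds insulin-like growth factors, rose by 1.57, the SMAD repressor SKIL by 1.10, collagen gene COL1A1 by 0.86, TGFB2 by 0.66 and PMEPA1 by 0.64 in the authors' deposited table. CYR61 (−0.38), CTGF (−0.31) and TGFBR2 (−0.18) fell, and the other 5 did not pass.

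Several large single changes lay in lists that did not move as a whole, or in none of the lists. Among genes above the median count, LBH, a transcriptional cofactor named for limb bud and heart and a member of the Wnt list, had the largest rise at 4.91 ± 0.16, from 125 to 3770 normalized counts. SYNPO, an actin-associated protein of podocyte foot processes and dendritic spines, rose by 4.14 ± 0.11 (from 343 to 6069). CYP1B1, a monooxygenase of the aryl hydrocarbon response, rose by 3.12 ± 0.12 and the secreted matrix protein THBS1 by 2.33 ± 0.07, from 18544 to 92916, and both overlap another gene on the same strand. HEG1, a transmembrane protein of endothelial junctions, rose by 2.09, the protocadherin FAT4 by 2.04, the AP-1 subunit JUNB by 2.08 and ERP27, a chaperone of the endoplasmic reticulum, by 2.09. SEC31B, which encodes a coat protein of vesicles leaving that compartment, rose by 2.12 with a standard error of 0.46. At low counts the deposited fold changes were larger still. ALPP, placental alkaline phosphatase and a member of the list of adenosine handling genes, rose by 5.38 ± 0.20, though reads of its near-copy ALPG may be shared with it, and WISP2, a secreted Wnt-induced protein singled out after its value was seen, rose by 6.53 from 10.9 normalized counts.

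The largest fall above the median count was in NT5E, which encodes CD73, the surface enzyme that makes adenosine from AMP. It fell by 2.43 ± 0.12 in the authors' deposited table, from 35884 to 6659 normalized counts (5.39-fold). PLXNA4, a semaphorin coreceptor, fell by 2.04 with a standard error of 0.32. Behind these came the long non-coding RNA OLMALINC (−1.94), the glucosyltransferase gene KDELC2 (−1.86), xanthine dehydrogenase XDH (−1.75), the fibroblast growth factor carrier FGFBP1 (−1.75), the pyrophosphate-generating ENPP1 (−1.75), the adenylyl cyclase ADCY3 (−1.69) and the O-glycosylation enzyme GALNT6 (−1.68). CDH4, retinal cadherin, fell by 4.91 ± 0.22 from 1488 to 49.6 normalized counts and was singled out after its value was seen, since it lies under the median count. In the adenosine list, NT5E fell with the receptor ADORA2B (−0.74), ENTPD5 (−0.61) and PNP (−0.40), and adenosine deaminase ADA rose by 2.98 ± 0.48 from 21.9 normalized counts.

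Genes that report ERK activity fell almost throughout. Of 19 feedback and ETS-factor genes that ERK signalling induces, 18 fell, 1 rose and the median was −0.93. DUSP6, the phosphatase that switches ERK off and serves as its standard readout, fell by 1.45 ± 0.10 (from 8402 to 3073 normalized counts). The ETS factors ETV4 (−1.17), ETV5 (−1.07) and ETV1 (−0.97) fell. So did the 3 EGFR ligands on the list, EREG (−1.38), HBEGF (−1.29) and AREG (−1.17), and the feedback inhibitors SPRY4 (−1.07), SPRY1 (−0.79), SPRY2 (−0.65), SPRED1 (−0.71) and SPRED2 (−0.73). Cyclin D1, CCND1, fell by 0.57. The immediate early factor EGR1 was the exception and rose by 0.99 ± 0.18.

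The receptors above ERK were split. Of 13 receptor tyrosine kinase genes with values, 5 rose and 5 fell. EGFR fell by 1.20 ± 0.09 (from 21956 to 9537 normalized counts), MST1R, the MET relative that binds macrophage-stimulating protein, by 1.33 ± 0.10, EPHA2 by 0.92 and MERTK by 0.90. IGF1R rose by 1.25 ± 0.18, FGFR1 by 0.58 and TYRO3 by 0.38 in the authors' deposited table. ERBB2 (0.10) and AXL (−0.14) did not pass. Side by side over lines, the median of the ERK list was −0.93 in EBC1, −0.70 in NCIH1975 and −0.26 in SKMES1, and 0.93 in NCIH1563 and 0.62 in NCIH226. These medians were not tested against each other.

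**Figure D3:**
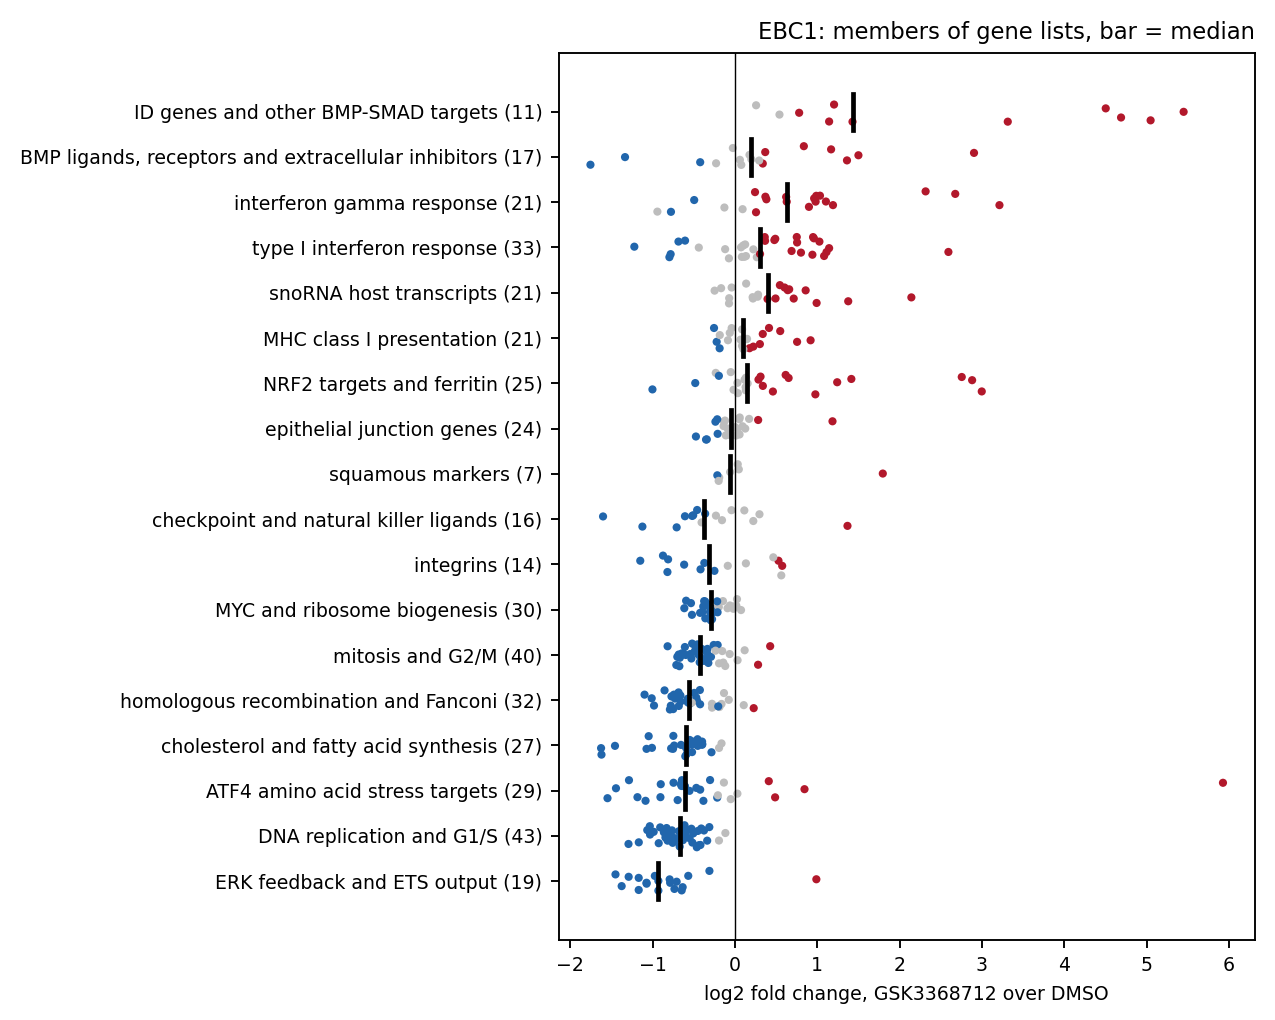
Log2 fold change (GSK3368712 over DMSO) of each EBC1 gene with values in 18 of the gene lists, 1 point per gene, red where it rose, blue where it fell and grey where it did not pass; black bars are list medians. The ID list has its median at 1.43, and the ERK list (−0.93) and the replication list (−0.67) lie almost wholly below 0.

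Most genes of cell division fell. Of 43 replication and G1/S genes, 41 fell, none rose and the median was −0.67. CCNE2, the cyclin that opens S phase with CDK2, fell by 1.29 ± 0.11. The primase subunit PRIM1 (−1.17), the replicative helicase component CDC45 (−1.06), the DNA polymerase alpha subunit POLA2 (−1.03), the ribonucleotide reductase subunit RRM2 (−1.03) and the flap nuclease FEN1 (−0.93) fell too. The helicase subunits MCM2 to MCM7 all fell, by 0.31 (MCM7) to 0.76 (MCM5), and E2F1 fell by 0.82. POLD2 (−0.12) and POLD3 (−0.19) did not pass. CLSPN, a replication checkpoint mediator named among the largest falls, fell by 1.46.

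E2F factors drive these genes at the G1/S boundary through sites close to the start. The stretches of 3 members that fell are printed to show such letters (RefSeq, GRCh38.p14, 250 bases before the start on the gene's strand: POLA2 on chr11:65261712-65261961, plus; E2F1 on chr20:33686386-33686635, minus; MCM6 on chr2:135876444-135876693, minus). They were picked because they hold the motif. Capitals mark TTTNGCGC on either strand, and where a match on each strand overlaps, the joined run is in capitals.
POLA2: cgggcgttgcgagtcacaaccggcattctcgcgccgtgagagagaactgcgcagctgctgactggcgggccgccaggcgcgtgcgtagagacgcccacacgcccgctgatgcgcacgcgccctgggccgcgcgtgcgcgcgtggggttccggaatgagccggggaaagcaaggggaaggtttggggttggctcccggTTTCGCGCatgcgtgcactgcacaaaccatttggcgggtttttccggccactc
E2F1: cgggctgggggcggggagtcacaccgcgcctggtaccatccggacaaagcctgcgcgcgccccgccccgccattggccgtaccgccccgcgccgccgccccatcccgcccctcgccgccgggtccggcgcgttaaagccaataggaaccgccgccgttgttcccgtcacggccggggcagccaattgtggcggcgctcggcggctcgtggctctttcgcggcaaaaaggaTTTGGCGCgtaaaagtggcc
MCM6: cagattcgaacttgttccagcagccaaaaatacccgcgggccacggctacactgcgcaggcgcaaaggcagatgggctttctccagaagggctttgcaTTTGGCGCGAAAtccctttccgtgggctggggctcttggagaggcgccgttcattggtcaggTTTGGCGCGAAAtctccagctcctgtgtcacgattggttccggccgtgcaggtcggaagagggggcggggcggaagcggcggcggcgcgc

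POLA2 and E2F1 held 1 match each, beginning 53 and 20 bases before the start, and MCM6 held 4 in 2 overlapping pairs. TTTNGCGC occurred in 11 of 45 promoter entries (24.4%) of 36 replication genes, in 2 of 42 entries (4.76%) of the mitosis list, in 1 of 37 entries (2.7%) of the homologous recombination list and in 1.51% of all 35116 entries. This search was added after the fold changes were seen, and a match is no evidence of binding. The replication list is made of genes that E2F factors are known to drive. Its share therefore describes the list and is no result about EBC1 or the compound.

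Of 40 mitosis and G2/M genes 30 fell and 2 rose (median −0.42). AURKB, a kinase of chromosome segregation, fell by 0.82, BUB1, a kinase of the spindle checkpoint, by 0.71, CDK1 by 0.70, FOXM1, the factor that drives this programme, by 0.68 and the topoisomerase TOP2A by 0.67 in the authors' deposited table. MKI67, the proliferation marker, fell by only 0.33 ± 0.08, from 37851 to 30028 normalized counts, and AURKA (−0.06) and CDC20 (−0.15) did not pass. KIF20A (0.28) and CDC25B (0.43) were the 2 that rose. Of 32 homologous recombination and Fanconi genes 23 fell and 1, ATM, rose (median −0.56). BRCA2 fell by 1.10, the helicase BLM by 1.01, RAD54B by 0.98, UBE2T by 0.85 and FANCI by 0.77, while the sensor genes MRE11 (−0.28) and NBN (0.11) did not pass. Of 10 cell cycle inhibitors 1 rose and 3 fell. CDKN1A (p21) stood at 0.15 ± 0.11 and CDKN1B at 0.07, neither passing, CDKN2C (−0.64), RBL1 (−0.55) and RB1 (−0.50) fell, and CDKN1C (p57) rose by 0.83. Of 26 p53 targets 9 rose and 10 fell. TP53INP1 (2.51) and BTG2 (1.83) rose, and DDB2 (−1.36), AEN (−0.86) and MDM2 (−0.57) fell. In bulk RNA, fewer cells in a phase and less transcript per cell cannot be told apart.

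Sterol and fatty acid synthesis genes fell together. Of 27 members 25 fell, none rose and the median was −0.59. ELOVL6, which lengthens palmitate, fell by 1.62 ± 0.09, fatty acid synthase FASN by 1.07, the regulator INSIG1 by 1.01 and the transcription factor SREBF1 by 0.78 in the authors' deposited table. The desaturase SCD fell by 1.46 with a standard error of 0.27, where the median is 0.089 among genes above 3000 counts. The squalene epoxidase SQLE fell by 0.52, and SREBF2 (−0.16) and SC5D (−0.19) did not pass. FADS1, a fatty acid desaturase outside the list, fell by 1.52 and the lipoprotein receptor LRP8 by 1.50.

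Amino acid stress targets of the factor ATF4 also fell, 21 of 29, with 4 rising and a median of −0.61. Asparagine synthetase ASNS fell by 1.55 ± 0.10 (from 15996 to 5470 normalized counts), the serine synthesis enzymes PSAT1 by 1.45 ± 0.10 and PSPH by 0.90, the mitochondrial folate enzyme MTHFD2 by 1.09, the glutamine carrier SLC1A5 by 0.91 and ATF4 itself by 0.64. The 4 that rose were NUPR1 (5.93 ± 0.36, from 8.98 normalized counts), ATF3 (0.84), DDIT4 (0.49) and DDIT3 (0.41). Other stress genes fell, among them CHAC1 (−1.29), TRIB3 (−0.75) and SESN2 (−0.47). The list median was below −0.1 only in EBC1; it was 0.81 in LK2, 0.80 in NCIH1563, 0.40 in SKMES1 and between −0.06 and 0.38 in the remaining lines, without a test of these medians. Of 21 endoplasmic reticulum chaperone and unfolded protein genes 12 fell and 3 rose, among them EDEM1 (−0.70) and XBP1 (−0.65) lower and HERPUD1 (0.31) higher, while HSPA5, the main chaperone of the compartment, stood at −0.05. Hypoxia and glycolysis genes were lower in 10 of 30 and higher in 3, with the growth factor VEGFA at −1.40 and hexokinase HK2 at −0.66. Of 45 nuclear genes of oxidative phosphorylation 17 fell and 1 rose (median −0.15), and of 13 mitochondrially encoded genes 8 rose and none fell (median 0.23, MT-ND5 the highest at 0.69).

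NRF2 targets and ferritin genes rose in 12 of 25 and fell in 3, with a median of 0.15. The aldo-keto reductases AKR1C1 (2.75 ± 0.23) and AKR1C2 (2.88 ± 0.34) rose, though the family's near-identical members may share reads. The ferritin light chain FTL rose by 1.41 ± 0.08, from 119831 to 319320 normalized counts, and the heavy chain FTH1 by 0.98 with a standard error of 0.31. Haem oxygenase HMOX1 rose by 3.0 with a standard error of 0.76. The glutathione synthesis gene GCLM (−0.23), the cystine carrier SLC7A11 (0.03) and OSGIN1 (−0.05), also NRF2 targets, did not pass.

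Antigen presentation and interferon genes leaned upwards and checkpoint ligands downwards. Of 21 interferon gamma response genes 16 rose and 2 fell (median 0.63). The guanylate-binding proteins GBP2 (3.21 ± 0.11), GBP4 (2.68) and GBP1 (0.99) rose, with GBP2 overlapping GBP7 on the same strand. Genes of MHC class II rose, HLA-DMA by 2.32, HLA-DRA by 1.10 and HLA-DRB1 by 0.98, together with their master regulator CIITA (0.96) and the invariant chain CD74 (0.63). The feedback inhibitor SOCS3 (−0.78) and the tryptophan-tRNA ligase WARS (−0.49) fell. Of 33 type I interferon genes 17 rose and 5 fell (median 0.30). TRIM22 (2.59), SAMD9L (1.08), STAT2 (0.95), HERC6 (0.94) and IFITM3 (0.80) rose, OAS3 (−1.22) and IFI44L (−0.69) fell, and ISG15 (0.08) did not pass. Only 8 of 21 MHC class I genes rose and 3 fell, with HLA-E (0.92), HLA-F (0.76) and PSMB10 (0.55) the highest, and B2M (0.15 ± 0.07, DESeq2 adjusted p = 0.0781) not passing. Reads of the HLA genes may be shared among their near-copies.

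Of 16 checkpoint and natural killer ligands 8 fell and 1 rose (median −0.38). CD274, which encodes PD-L1, fell by 1.12 ± 0.15 (from 1173 to 538 normalized counts) and PDCD1LG2 (PD-L2) by 1.60 ± 0.37. The adhesion ligand CD58 (−0.71), the poliovirus receptor PVR (−0.61), CD276 (−0.46) and the NKG2D ligand genes ULBP1 (−0.52), ULBP2 (−0.51) and MICA (−0.36) fell, and galectin-9, LGALS9, rose by 1.37 ± 0.15. Among 17 sensors of nucleic acid 7 rose and 5 fell in the authors' deposited table. STING (TMEM173, 0.73), IFI16 (0.85) and TLR3 (0.80) rose, and the DNA sensor CGAS (−0.96) and the RNA-activated kinase EIF2AK2 (−0.62) fell. CXCL16 (1.50), CSF1 (1.33) and the interleukin-6 relative LIF (−1.16) led 18 cytokine and NF-kB genes, of which 6 rose and 4 fell.

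Of 17 BCL2 family members 6 rose and 7 fell, with no common direction among the genes that promote cell death. BMF, a BH3-only protein, rose by 3.57 ± 0.12 (from 969 to 11515 normalized counts), HRK by 2.31 ± 0.23, BBC3 by 0.90 and BCL2L11 (BIM) by 0.89. BCL2 fell by 1.27 ± 0.24, BCL2L1 (BCL-XL) by 0.72 and MCL1 by 0.29. The BH3-only genes PMAIP1 (−0.46), BIK (−0.54) and BID (−0.32) fell, as did the death effector BAX (−0.19). BMF overlaps the antisense gene BMF-AS1.

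Genes of epithelial and mesenchymal state did not move as blocks. Of 24 epithelial junction genes 6 fell, 2 rose and 16 did not pass, with the adhesion genes CDH1 (−0.47) and EPCAM (−0.35) lower and TJP3 (1.19) higher. SNAI1, a repressor of CDH1, rose by 3.28 ± 0.24 (from 61.6 to 600 normalized counts), while its relative SNAI2 (−0.11) did not pass. Of 13 mesenchymal genes, TNC (−1.27), MMP14 (−1.08), ACTA2 (−0.89), LOXL2 (−0.95) and VIM (−0.42) fell, and FBN1 (1.96) rose with SNAI1. Integrins fell in 8 of 14 genes and rose in 2, ITGA1 by 1.15, ITGB5 by 0.87, ITGA2 by 0.82 and the laminin receptor ITGA6 by 0.81, and ITGAV rose by 0.57. Of 20 collagens and laminins, which include integrin ligands, 6 rose, 6 fell and the median was −0.08. LAMA3 (−1.04), COL4A5 (−1.30) and COL17A1 (−0.62) were among those that fell, and LAMB2 (1.10), COL7A1 (1.27), COL16A1 (1.23) and LAMA4 (0.60) among those that rose. Of 23 Wnt and beta-catenin genes 6 rose and 5 fell. LBH, LEF1 (1.84), FZD2 (1.33) and APC (0.48) rose, and WNT7A (−1.68) and CTNNB1 (−0.17) fell. Of 19 genes on the list of YAP and TEAD targets, which also holds the factors themselves, 7 rose and 7 fell. ANKRD1 (2.03, mean count 206.7) had the largest rise and NT5E (−2.43) the largest fall. The coactivator gene WWTR1 (TAZ) stood at −1.14, and the targets CYR61 (−0.38) and CTGF (−0.31) fell too.

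RNA-binding proteins are the main substrates of type I enzymes, and their own transcripts changed modestly. Of 28 hnRNP and FET genes 15 fell and 3 rose (median −0.20), with HNRNPAB at −0.64 and HNRNPA3 at −0.44. Of 20 SR proteins and their kinases 8 fell and 4 rose, SRSF1 (−0.61), SRPK1 (−0.61) and CLK3 (−0.61) being the lowest and CLK1 (0.55) and CLK4 (0.60) the highest. Host transcripts of small nucleolar RNAs rose in 11 of 21 and fell in none (median 0.40), from SNHG6 (0.40) to SNHG19 (2.14 ± 0.12), with GAS5 at 0.64. The genes of ribosome biogenesis and MYC output fell in 20 of 30 and rose in none (median −0.29), NOP56 (−0.61) and the spermidine synthase SRM (−0.59) leading. The paraspeckle scaffold NEAT1 rose by 2.39 with a standard error of 0.36 and MALAT1 by 2.02 with a standard error of 0.71, both wide for their counts.

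Enzymes of chromatin moved in both directions. Of 26 histone lysine methyltransferases 13 rose and 8 fell. The KMT2 family genes KMT2C (0.96), KMT2A (0.76), KMT2E (0.60) and KMT2D (0.49) rose, and KMT2B (0.06) did not pass. The H3K36 enzyme NSD2 (−0.83) and the H3K9 enzymes SUV39H1 (−0.80) and EHMT1 (−0.54) fell. So did the polycomb subunits EED (−0.29) and SUZ12 (−0.24), while EZH2 stood at 0.19. The maintenance methyltransferase DNMT1 (−0.56) and its partner UHRF1 (−0.66) fell, and DNMT3A (0.44) and TET2 (0.38) rose. Among class IIa deacetylases, HDAC5 rose by 2.00 ± 0.13 and HDAC4 fell by 1.62 ± 0.17 in the authors' deposited table.

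Whether a response belonged to EBC1 more than to the other lines was tested with limma, setting the EBC1 fold change of each of 12314 genes against the mean of the other lines, with at least 5 of the other 9 lines required. EBC1 counts as 1 line and is taken to vary as the others do. By an adjusted p of at most 0.05, 21 genes (0.171%) stood higher in EBC1 and 0 lower. At an unadjusted p of at most 0.05, 458 stood higher and 237 lower, 695 of the 12314 genes in all. A share of 0.05 would pass at this level if no gene differed. The 695 genes lie close to that share and are not read as further EBC1 responses. An ordinary linear model without moderation called 0 genes, with 672 at the unadjusted threshold, so these calls rest on the variance shared across genes.

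The 21 genes included the BMP targets ID3, ID2, DLX3 and ATOH8 and the BMP decoy receptor BAMBI. ID2, DLX3 and ATOH8 had few counts with DMSO and may be listed only for their level with GSK3368712. The largest difference was that of DIO2, an enzyme that activates thyroid hormone, at 5.10 (limma adjusted p = 0.0158, 5 other lines). The fold change of ID3 was 4.50 in EBC1 and 0.38 ± 0.54 (SD, n = 9) in the other lines, a difference of 4.12 ± 0.51 (SE; limma adjusted p = 0.00705), and the highest other line, NCIH1975, stood at 1.35. For ID2 the difference was 4.46 (adjusted p = 0.0107, limma, 8 other lines), for DLX3 5.03 (adjusted p = 0.00144, limma, 6 other lines), for ATOH8 4.30 (adjusted p = 0.0318, limma, 6 other lines) and for BAMBI 2.68 (adjusted p = 0.0357, limma, 9 other lines). The ATOH8 call was lost when 1 other line was left out, whether NCIH1563 (limma adjusted p = 0.0505), SW900 (0.0555), SKMES1 (0.0644) or NCIH520 (0.078). The BAMBI call was lost without SW900 (limma adjusted p = 0.0597), NCIH522 (0.066), SKMES1 (0.067), NCIH226 (0.0688) or NCIH520 (0.0761). ID4 (difference 2.95, adjusted p = 0.0926) and ID1 (1.15, adjusted p = 0.395) did not pass limma's threshold, although EBC1 had the highest value of all lines for both. SYNPO, with a fold change of 4.14 against 0.33 ± 0.23 (SD, n = 6), differed by 3.82 ± 0.28 (SE; limma adjusted p = 0.00191), and SNAI1 by 3.15 (limma adjusted p = 0.00705). Against the 5 other squamous lines alone, SNAI1 had a limma adjusted p of 0.0582.

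Other large EBC1 responses were not separable from the spread of the lines. LBH differed by 4.47 ± 0.86 (SE) with a limma adjusted p of 0.0853, its values in the other 9 lines running from −1.52 in LK2 to 1.41 in NCIH1975. HMOX1 (difference 2.70, limma adjusted p = 0.0707), CYP1B1 (3.09, limma adjusted p = 0.116) and GBP2 (2.74, limma adjusted p = 0.267) were similar. Among falls, MTHFD2 differed by −1.48 (limma adjusted p = 0.084), PSAT1 by −1.95 (0.18), ASNS by −2.09 (0.292), DUSP6 by −1.53 (0.828) and NT5E by −1.77 (0.936). EBC1 was the lowest line for ASNS (next NCIH226, −0.42) and for DUSP6 (next NCIH1975, −0.93).

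**Figure D4:**
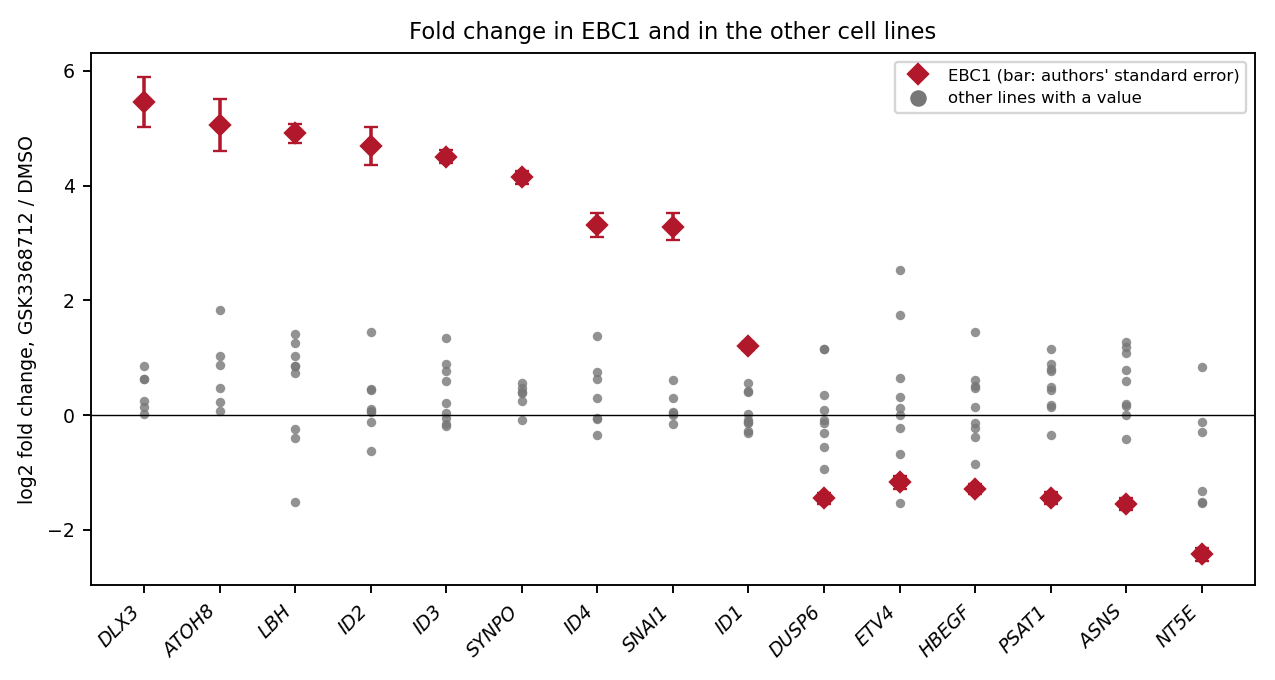
Log2 fold change (GSK3368712 over DMSO) of 15 genes in EBC1 (red diamonds, bars are the authors' standard error) and in each other line with a value (grey points). EBC1 is above every other line from DLX3 to ID1, and for ETV4 it lies within their range.

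A group of abundant transcripts carried wide errors. Of 4802 EBC1 genes above a mean count of 3000, 38 had a standard error above 0.2 in the authors' deposited table, among them HMOX1, NEAT1, MALAT1, FTH1, PLXNA4 and SCD described above, and their fold changes are less certain than those of ID3 or NT5E.

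**Figure D5:**
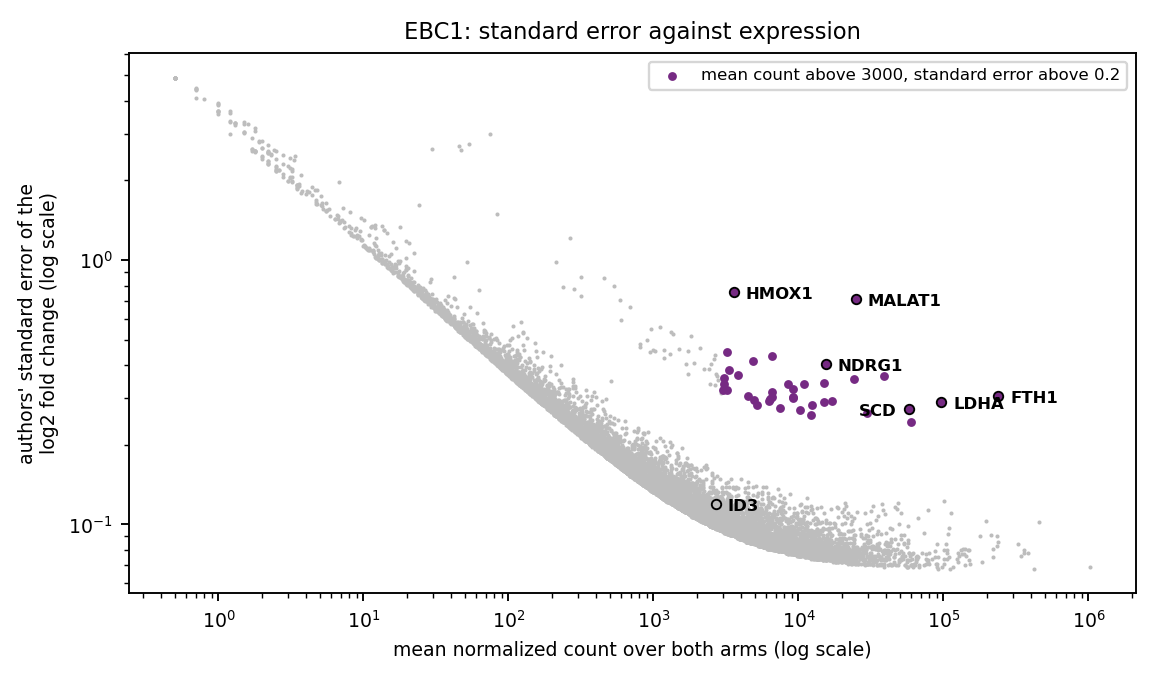
The authors' standard error of the log2 fold change (log scale) against the mean normalized count over both arms (log scale), 1 point per EBC1 gene. The 38 purple genes above a count of 3000 and a standard error of 0.2 stand apart from the band in which the rest lie, HMOX1 (0.759) being the highest.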

How the data were processed

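RNA was isolated from cell pellets with a miRNeasy kit and made into TruSeq Stranded mRNA libraries for paired 151-base reads, per the labels' protocols. Per the submitters' processing notes, the authors used FastQC, Salmon 0.12.0, the GRCh38 build and DESeq2, whose version is not given in the sources used here. Genes at an FPKM of 1 or less were removed from a comparison, per the labels. The authors' deposited table gives for each gene and line a log2 fold change with its standard error, a test statistic (a score), a p-value adjusted for multiple testing and a mean normalized count over both arms (a signal). In 13965 of 13968 genes the deposited mark equalled a threshold of 0.05 on the adjusted p combined with a log2 change of 1 or more. A positive fold change is taken as higher with GSK3368712 because the row labels name the compound before DMSO, and no value in the table tests this. Counting intervals need the depth of each library, which was not analysed here. ID3 is listed at an adjusted p of 2.2e-16 beside the largest statistic of the line.

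The members, the 53 lists and the tests were chosen with earlier results of these data known. Lists are described by counts and medians, with no test of a list. Named genes are the 15 largest rises and falls among called genes above the median count, all members of lists of up to 8, the 6 members of longer lists with the smallest adjusted p, genes differing from the other lines above the median count, and a fixed set. Other list members named, and genes of the comparison of lines under the median count, were singled out after their values were seen. Some genes that meet these rules are not reported here. Positions and overlaps came from GENCODE 29, in which 13953 gene IDs matched. Promoters came from the RefSeq table of GRCh38.p14. The comparison of lines used limma 3.58.1 in R 4.3.3 with Benjamini-Hochberg adjustment. The alternatives were other thresholds, filters and centring, other variance models and leaving out lines. Tested on simulated data of 12314 genes, the limma comparison recovered 22% of shifts of 1 on the log2 scale, 72% of shifts of 2, 82% of shifts of 3 and 96% of shifts of 5. Every simulated gene had values in all 10 lines, so recovery for genes with values in fewer lines was not measured. Python 3.11.15 with pandas 2.3.3 and matplotlib 3.10.9 made the tables and figures.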

Additional observations from a re-analysis of the deposited data

Results flagged for a closer look

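The difference between the EBC1 fold change and the mean of the other lines passed limma's adjusted threshold for 21 genes, all higher in EBC1, and 20 of them are given here with that difference on the log2 scale. Of the BMP-SMAD targets, DLX3 differed by 5.03, ID2 by 4.46, ATOH8 by 4.30, ID3 by 4.12 and the decoy receptor BAMBI by 2.68. Of regulators of transcription, SNAI1 differed by 3.15 and the forkhead factor FOXO4 by 2.21. Of cytoskeletal and signalling genes, MAP7D2 (microtubule binding) differed by 4.85, PLEKHG4 (a guanine nucleotide exchange factor) by 3.97, SYNPO by 3.82, RASL11A (a small GTPase) by 3.36 and NEBL (an actin-binding protein) by 2.79. Of enzymes, DIO2 (which activates thyroid hormone) differed by 5.10, AKR1C1 by 3.0, ADA by 2.82 and the ceramide synthase CERS4 by 2.12. The remaining genes were SELENOM (a selenoprotein of the endoplasmic reticulum) at 3.01, KLHDC8B at 3.0, the anion carrier SLC26A11 at 2.50 and YPEL3 at 1.94.

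Most of these transcripts were scarce in the DMSO arm. Since the authors removed genes of low expression, scarce ones may be listed only for their level with GSK3368712. Such genes could show only a rise in EBC1. DIO2 went from 20.7 to 586.9 normalized counts, MAP7D2 from 18.0 to 740.7, PLEKHG4 from 16.8 to 261.8 and SELENOM from 4.3 to 40.2. FOXO4 (241.1 to 1467.6) and YPEL3 (287.5 to 1215.7) started higher. Against the other squamous lines only, the FOXO4 call was lost (limma adjusted p = 0.119). It was also lost with scaling by each line's SD (limma adjusted p = 0.11) and with trended, robust variance (limma adjusted p = 0.0608). DIO2, ID2, ATOH8, PLEKHG4, SYNPO, SELENOM, ADA, NEBL, SLC26A11, CERS4 and YPEL3 overlap a gene on the opposite strand, MAP7D2 and NEBL overlap 1 on the same strand, and AKR1C1 has near-identical paralogs. The SLC26A11 call was lost without NCIH1975, NCIH226, NCIH520, NCIH522, PC9, SKMES1 or SW900, each left out in turn, with limma adjusted p between 0.0727 (without NCIH226) and 0.088 (without NCIH520).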

How the results depend on the processing

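No paired analysis was possible because the authors' deposited table holds comparisons and no values per library. Library depth and per-library spread limit every EBC1 call to what the authors' DESeq2 fit gives. Requiring also a log2 change of at least 1 left 875 genes higher and 364 lower. Recomputing the adjusted p, a threshold of 0.01, the top 75% of genes by count and centring kept both counts within 1.5 times. The 325 named genes were rechecked only with the recomputed adjusted p, with centring and, for 288 of them, in the top 75%. All kept their call, though recomputing and centring on a median of 0.002 could hardly change one. The 0.01 threshold was not applied to them, and some called genes fail it, such as MALAT1 (DESeq2 adjusted p = 0.0125). Of 156 list medians under alternatives, 31 moved by more than the members' median standard error, in 23 lists. The list of ID genes and other BMP-SMAD targets was among those lists. Its value was higher with the mean in place of the median. It was also higher among members above the EBC1 median count, which were only ID1 and ID3.

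Against the other lines, the 21 genes became 6 among genes with values in all 10 lines, where 9339 were tested, and 0 under an ordinary linear model without moderation. A z test from the authors' standard errors, which leaves out the spread between lines, called 3205. Leaving out each other line in turn gave 17 to 27 genes, 16 to 20 of them shared with the 21. Against the other squamous lines only, 30 stood higher and 1 lower, 15 of them shared. Centring gave 22, scaling by each line's SD 16, and trended, robust variance 15. Over the 21 genes and these settings, 257 values stayed past the threshold and 53 did not, all in the same direction. A gene with values in only 5 other lines could not be fitted when 1 of those was left out.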

Other observations

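Some abundant EBC1 transcripts had standard errors far wider than others at the same level. Of 4802 genes with a mean count above 3000, 38 had a standard error above 0.2 on the log2 scale, from 0.243 upwards, while the widest of the rest was 0.149 and the median 0.089. They included HMOX1 (0.759), MALAT1 (0.713), NDRG1 (0.405), NEAT1 (0.355), PLXNA4 (0.324), FTH1 (0.307), LDHA (0.29), SCD (0.273) and PGK1 (0.243). Of the 38 genes, 17 passed the authors' adjusted threshold. The list of hypoxia and glycolysis genes held 4 of them (NDRG1, LDHA, BNIP3 and PGK1) among its 24 members above that count. It was not alone in this. The list of nuclear long non-coding RNAs and paraspeckle proteins held 2 of 7, TGF-beta targets 2 of 11 and sterol and fatty acid synthesis 2 of 23. Values per library were not analysed here.

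By gene type, 2801 of 11846 protein-coding genes rose and 3065 fell, 113 of 488 long intergenic non-coding genes rose and 54 fell, and 99 of 504 antisense genes rose and 69 fell.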
